A study of Drosophila melanogaster with 3 samples.

Results

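The tetraspanin genes of Drosophila melanogaster were examined for binding by the transcription factor crp (cropped) in whole embryos. The members were the protein-coding genes of the dm6 Ensembl annotation whose symbol is Tsp followed by the 2 or 3 digits and the letter of a cytological band, such as Tsp86D or Tsp42Ea. This took 31 of 13968 genes. Of these, 17 form the Tsp42E cluster, a run of 73.4 kb at chr2R:6992676-7066113, and 14 lie elsewhere. RefSeq names the products of 34 genes as tetraspanins. The symbol rule covered 31 of them, and the remaining 3, Tsp2A, Tsp3A and Tsp5D, have a 1-digit band and are described apart, with lbm (late bloomer), a tetraspanin inside the cluster that has another kind of symbol.

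Tetraspanins are small membrane proteins that cross the membrane repeatedly, with a short and a long extracellular loop. They bind each other and partner proteins such as integrins, proteases and receptors, and by this they organise patches of membrane and the transport of their partners through the cell. Flies have a large family. Members of its TspanC8 subgroup, Tsp86D, Tsp3A and Tsp26A, bind the protease Kuzbanian (ADAM10 in mammals), bring it to the cell surface and so act in Notch signalling. Tsp2A is needed for smooth septate junctions of the gut, Tsp42Ej (also called sunglasses) for turnover of rhodopsin, and lbm acts at the tips of motor axons.

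The data came from 1 group of 3 samples labelled as biological replicates. The flies belonged to a single transgenic line that expressed crp with GFP fused to its C terminus, and chromatin of mixed-sex embryos aged 0 to 24 h, sonicated to 200 to 800 bp, was precipitated with an antibody against GFP. No other genotype, age or treatment was analysed here, nor was a control library. crp belongs to the AP-4 family of basic helix-loop-helix factors, which bind the palindrome CAGCTG, a form of the E-box (CANNTG). A mixture of stages and tissues was sampled, so a weak peak from strong binding in few cells and one from weak binding in many cannot be told apart.

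Each replicate has a relaxed list of peaks from the authors, of 30000, 28713 and 30000 entries in replicates 1, 2 and 3, and the pool of the replicates has one of 28145. A further list holds the peaks that met the authors' limit on the irreproducible discovery rate (IDR), a measure of how far peak ranks recur between replicates. The IDR peaks were the strongest of the pooled list. To read the replicates at the same length, as many of the highest peaks of each were taken as the IDR list holds, and these are called its strongest peaks. Read depth is unknown, so signal was read as relative signal, the authors' signal of a peak divided by the median over the strongest peaks of its list. The weakest of the strongest peaks, here called the floor, had a relative signal of 0.457, 0.447 and 0.427 in replicates 1, 2 and 3 and 0.456 in the IDR list. Promoter summits are those no more than 500 bp from an annotated start, counted on either side.

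Sequences at 5 tetraspanin genes are given here, chosen to show the site under a strong peak, the site under or beside weak peaks, and a peak without it, with CAGCTG in capitals, on dm6, from the RefSeq copy of the assembly. The first runs between the start sites of Tsp86D and of SelR (a methionine sulfoxide reductase), which face away from each other, at chr3R:10868643-10868707 on the plus strand. It is shown because the summit of the Tsp86D peak, the highest of the family, lies in it. The next 3 are windows of 26 bases on the strand of the gene: Tsp3A at chrX:2619793-2619818 (minus), Tsp26A at chr2L:6000306-6000331 (plus) and Tsp39D at chr2L:21344752-21344777 (plus). They are shown to compare a site under a strong peak (Tsp3A) with sites under or beside weak ones. The last, chr2L:8937158-8937258 (plus), surrounds the summit of the Tsp29Fb peak and holds no E-box.
Tsp86D: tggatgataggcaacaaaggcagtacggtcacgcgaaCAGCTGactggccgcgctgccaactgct
Tsp3A: ccgtttcgaaCAGCTGtgcgccgcta
Tsp26A: ggagcaatgcCAGCTGctgtgcgcaa
Tsp39D: tgaaaccaatCAGCTGcaatagatga
Tsp29Fb: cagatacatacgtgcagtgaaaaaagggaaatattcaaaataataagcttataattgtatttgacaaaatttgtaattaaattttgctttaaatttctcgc

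Among the members, crp-GFP gave 1 peak of very high signal, at Tsp86D, and a moderate peak at Tsp42El that recurred in all 3 replicates. The other members had lower peaks or none. The Tsp86D promoter peak had a relative signal of 27.7, 27.4 and 34.5 in replicates 1, 2 and 3. All 3 values were far above those of any other member, and they gave a mean of 29.8 ± 4.01 (SD, n = 3). The peak ranked 9, 11 and 8 in the replicates and 11 in the IDR list, where its relative signal was 34.7 and the highest of any peak was 61.0. The summit fell on the same base, chr3R:10868698, in every replicate, 10 bp upstream of the Tsp86D start and 56 bp upstream of the SelR start. The starts are 66 bp apart, so the peak cannot be assigned to 1 of the genes. Tsp86D (FBgn0037848) itself spans chr3R:10868708-10870555 on the plus strand.

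The CAGCTG of the Tsp86D peak occupied chr3R:10868680-10868685, and its centre was 15.5 bp from the summit. A second E-box, CAACTG, lay in lower case near the end of the printed stretch. Another CAGCTG lay 119 bp upstream of the start and had no summit within 50 bp in any list. In the IDR list the Tsp86D signal was 19.2 times that of Tsp42El, the next member. Within replicates 1, 2 and 3 the same ratio was 20.6, 12.5 and 30.4.

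**Figure D1:**
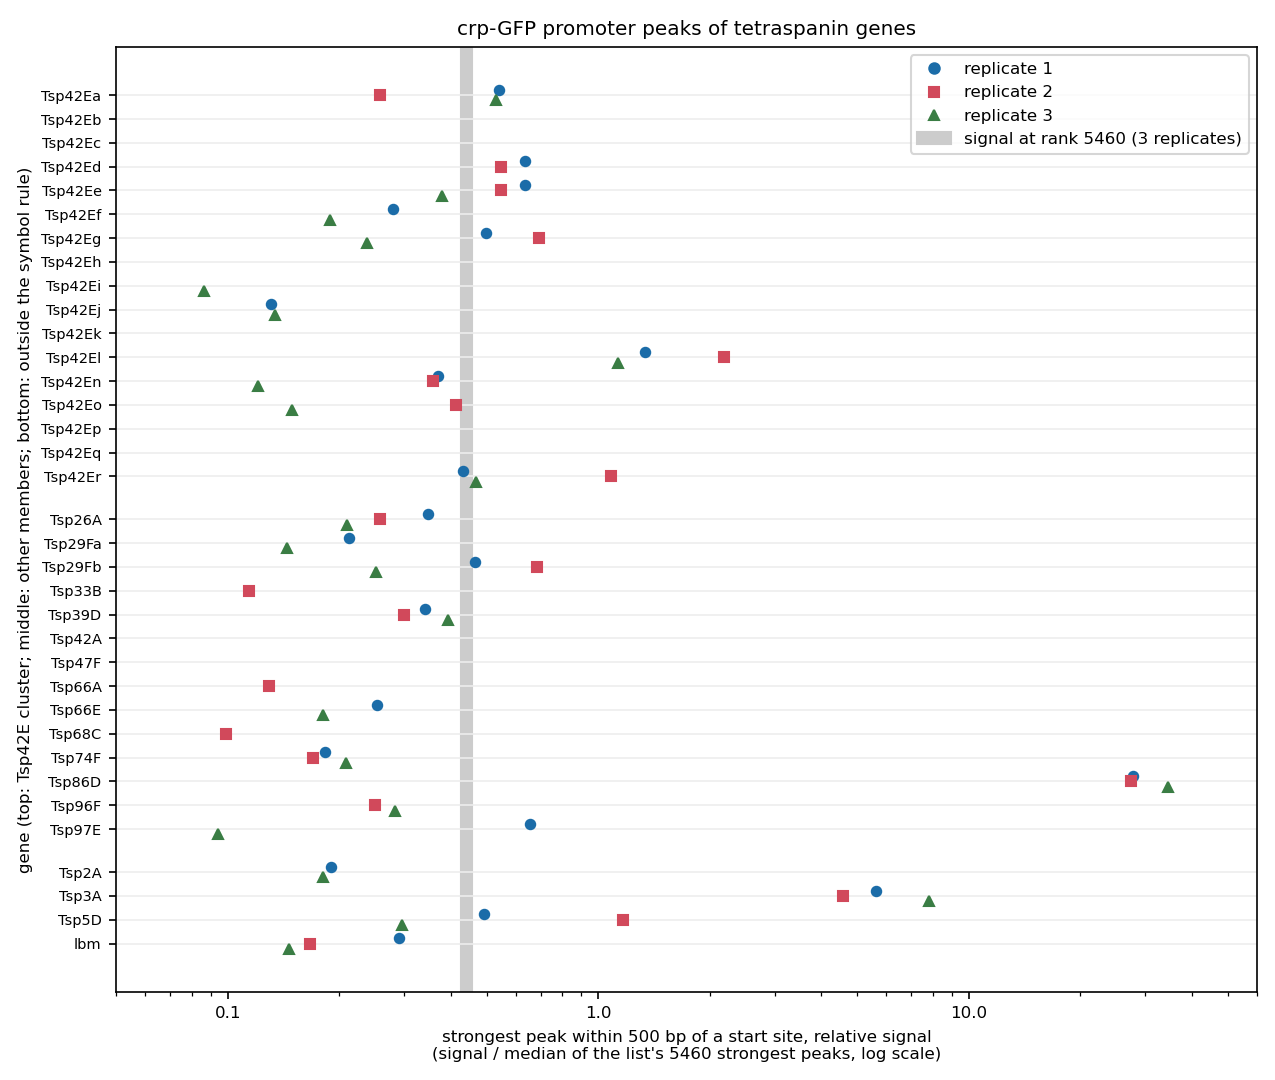
Relative signal (log scale) of the strongest peak within 500 bp of a start site for each tetraspanin gene, with 1 symbol per replicate and no symbol where a replicate listed no peak. The grey band is the range of the floor in the 3 replicates; Tsp86D stands at 27.4 to 34.5, Tsp42El at 1.13 to 2.19, and most other members lie below the band.

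Of the 31 members, 7 (22.6%) had an IDR summit at a promoter, against 33.3% of all protein-coding genes. These were Tsp86D and Tsp29Fb outside the cluster and Tsp42Ed, Tsp42Ee, Tsp42Eg, Tsp42El and Tsp42Er within it. Tsp42Ed and Tsp42Ee shared a summit, so the 7 genes had 6 summits. The strongest peaks of replicate 1 reached 8 members (25.8%, background 30.3%), those of replicate 2 reached 7 (22.6%, background 31.7%) and those of replicate 3 reached 4 (12.9%, background 32.1%). Members were below the share of all genes in each of these lists, and no test was made of this difference.

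The identity of the bound members held across replicates for few of them. Tsp42El and Tsp86D were reached by the strongest peaks of all 3 replicates, and 9 members by those of any replicate. Replicate 3 lacked Tsp29Fb, Tsp42Ed, Tsp42Ee and Tsp42Eg, which replicates 1 and 2 both had. The IDR list was then replaced by the summits shared between the strongest lists of a pair of replicates. The count of 7 became 3 without replicate 1, 2 without replicate 2 and 4 without replicate 3. Tsp42El and Tsp86D were in all 3 sets. These pair lists held 3377, 3938 and 3428 summits, fewer than the IDR list. The share of all genes was not counted for the pair lists, for all 3 replicates together or for any replicate. Whether members recurred less than other genes was therefore not tested. In the relaxed pooled list 18 of 31 members (58.1%) had a promoter summit, against 57.2% of all genes.

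Tsp42El was the strongest member of the cluster, with a relative signal of 1.34, 2.19 and 1.13. Each replicate stood above its own floor, and the mean was 1.56 ± 0.562 (SD, n = 3). Its IDR peak ranked 1729 with a relative signal of 1.81, and the summit lay 210 bp upstream of the start. The E-box CATTTG lay within 50 bp of it. Nearer to the start, 99 bp upstream, was a site of the AP-4 form that had no summit within 50 bp in any list.

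Tsp42Er, the last gene of the cluster, had 0.433, 1.08 and 0.467. Replicate 2 was more than 2 times as high as either of the others, and replicate 1 fell short of its floor. The IDR peak ranked 3142, at 0.856, with its summit 143 bp upstream of the start and no E-box within 50 bp.

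Tsp42Eg had 0.499, 0.693 and 0.238, with the lowest value in replicate 3, whose summit was 197 bp from that of the IDR peak and was not counted as the same summit. The IDR peak ranked 5243, at 0.476, with its summit 301 bp upstream of the start. It held CACGTG, the E-box form bound by many other helix-loop-helix factors, and CGATA, the core of the motif of the boundary factor BEAF-32.

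Tsp42Ed and Tsp42Ee are transcribed away from each other from starts 515 bp apart, and the shared summit lay between them, 415 bp upstream of Tsp42Ed and 100 bp upstream of Tsp42Ee. The IDR peak ranked 5392 at 0.462, close to the end of the list. Only replicate 2 had a summit within 100 bp of it, at 0.547. Replicate 1 had 0.636 at a summit 21 bp upstream of Tsp42Ed. Replicate 3 had 0.380 at a summit in an intron of Tsp42Ee, 58 bp upstream of another annotated start inside that gene. The position of the crp-GFP summit at this pair of genes thus differed between replicates, and in replicate 3 it was not between them.

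Tsp29Fb had 0.466, 0.684 and 0.252. Replicates 1 and 2 were above their floors and replicate 3 below its own. The IDR peak ranked 4582 at 0.556, and its summit lay 182 bp upstream of the start in the AT-rich stretch printed above. Its neighbour Tsp29Fa had 0.212 in replicate 1, no peak in replicate 2 and 0.145 in replicate 3.

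**Figure D2:**
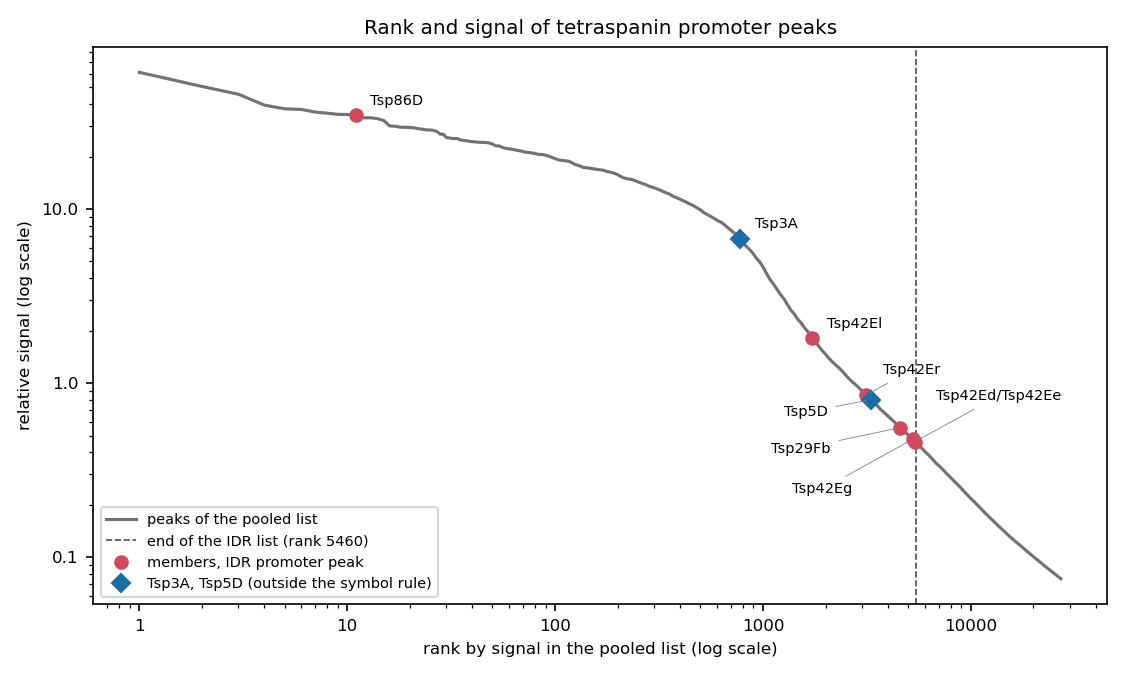
Relative signal against rank by signal in the pooled list (both log scale); the grey curve is all peaks, circles are members' IDR promoter peaks and diamonds are Tsp3A and Tsp5D. Tsp86D lies at rank 11, Tsp42El at rank 1729, and the peaks of Tsp29Fb, Tsp42Eg and Tsp42Ed/Tsp42Ee at ranks 4582 to 5392, near the end of the IDR list, marked by the dashed line.

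Just below the end of the IDR list were the promoter peaks of Tsp39D, Tsp42Ea and Tsp42En, at 0.396, 0.350 and 0.338 in the pooled list. Tsp39D had 0.341, 0.299 and 0.394, below the floor in each replicate. Tsp42Ea had 0.540, 0.257 and 0.531, so replicates 1 and 3 placed it among their strongest peaks and replicate 2 did not. The summit was 102 bp upstream of a Tsp42Ea start in replicate 1 and 163 bp downstream in replicate 3. The gene CG30159 starts 0.005 kb from the first Tsp42Ea start on the same strand, so the peak cannot be assigned to 1 of the genes. Tsp42En had 0.370, 0.359 and 0.121.

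The other members with a promoter summit in the pooled list were Tsp42Eo (0.283), Tsp74F (0.262), Tsp26A (0.255), Tsp96F (0.234), Tsp97E (0.185), Tsp42Ef (0.139), Tsp29Fa (0.116) and Tsp42Ej (0.0754). Tsp97E was uneven between replicates, with 0.655 in replicate 1, no peak in replicate 2 and 0.0941 in replicate 3. Tsp33B, Tsp66A and Tsp68C had a promoter summit in replicate 2 alone, Tsp42Ei in replicate 3 alone, and Tsp66E in replicates 1 and 3, all below the floor.

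None of the 31 members had an IDR summit in the gene body without one at the promoter, against 2.91% of all genes. The strongest peaks of replicate 2 did reach the body of 1 member without its promoter, Tsp96F. Summits below the IDR list lay in introns of several members, and in the pooled list the strongest were in Tsp66E and Tsp96F. Weaker ones were, among others, in Tsp97E (0.284) and Tsp42Eg (0.224). The strongest in Tsp66E, a gene of 19567 bp, was 8327 bp downstream of a start at chr3L:8920869, with 0.391 in the pooled list. The replicates had 0.390, 0.431 and 0.235 there. Tsp96F, whose protein is often used as a marker of extracellular vesicles, had an intron peak 976 bp from its start with 0.396 in the pooled list and 0.308, 0.494 and 0.183 in the replicates. A second intron peak, 1814 bp from the start, had 0.361 in the pooled list and 0.702 in replicate 2. Replicate 1 listed no summit there, and the nearest in replicate 3 had 0.0786. Tsp42Ek had no promoter summit. Each of the 3 replicates had a body summit in it, of 0.261, 0.140 and 0.0987, all below the floor. These lay 1493, 1028 and 721 bp downstream of a start, so by the limit of 100 bp they were different summits. In Tsp42Ep and Tsp42Eq the body summits were in replicates 2 and 3 and in replicate 3 alone. The replicate 2 summit in Tsp42Ep, 0.414, was also the promoter summit of Tsp42Eo. The summit in Tsp42Eq, 0.152, lay beside a much stronger one of 9.46 near the start of the gene Pgant3. Tsp42A, Tsp42Eb, Tsp42Ec, Tsp42Eh and Tsp47F had no summit in any list, at the promoter or in the body.

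Within the Tsp42E cluster, 5 of 17 members (29.4%) had an IDR promoter summit, and outside it 2 of 14 (14.3%). In replicates 1, 2 and 3 the strongest peaks reached 5, 5 and 3 cluster members and 3, 2 and 1 of the others. The share outside minus the share inside was -7.98, -15.1 and -10.5 percentage points, negative in 3 of 3 replicates. The mean was -11.2 ± 3.62 points (SD, n = 3), from 25.5% ± 6.79 inside and 14.3% ± 7.14 outside, and the exact two-sided sign-flip test gave p = 0.25, the smallest that 3 replicates allow. The size and the direction depended on the settings. With promoter windows of 250 and 1000 bp the mean was -3.36 ± 7.14 and -5.60 ± 4.31 points. With the 1000 strongest peaks of each replicate it was 7.14 points, since Tsp86D alone was reached, and with all relaxed peaks of each replicate 8.96 ± 7.18 points. In the relaxed pooled list it was -1.68 points. All 3 replicates were read at the same 17 and 14 genes. The SD and the p-value therefore describe how the calls repeated between replicates, not how genes vary within each class. Whether cluster genes differ from other tetraspanin genes was not tested. Cluster members are neighbours and share a summit in 1 case, so they are not independent.

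**Figure D3:**
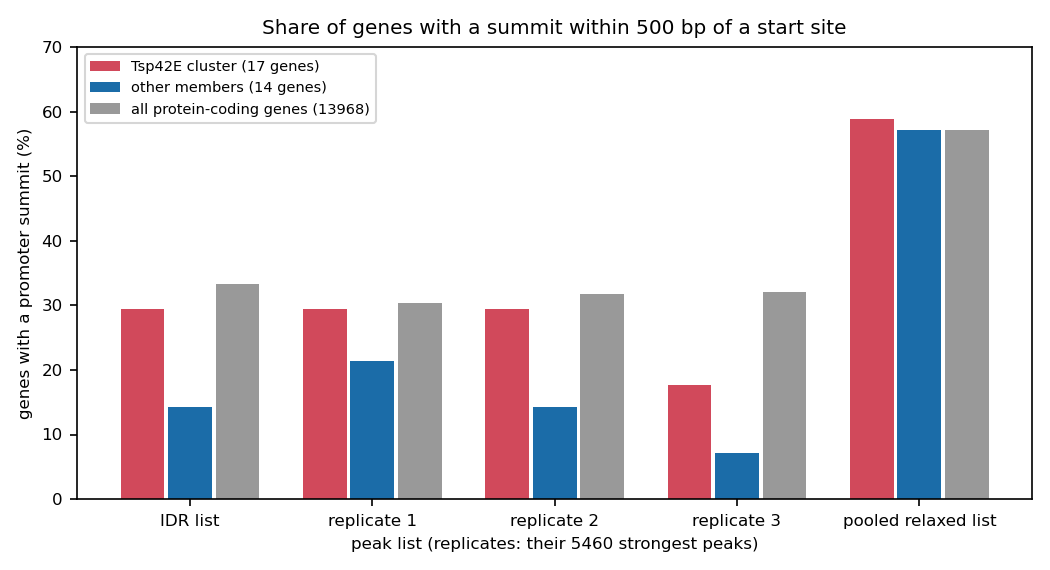
Bars give the share of genes (%) with a promoter summit (within 500 bp) in the IDR list, the strongest peaks of each replicate and the relaxed pooled list, for the 17 cluster members, the 14 other members and all 13968 genes. The other members are lowest in the IDR list and in each replicate, and the 3 bars are 58.8%, 57.1% and 57.2% in the pooled list.

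The cluster interval overlaps 24 protein-coding genes: the 17 members, lbm, Pgant3 and 5 genes known by CG numbers. It held 5 IDR summits, or 6.81 per 100 kb against 3.97 over all arms. Densities per kb here were not adjusted for how closely genes are packed, so they show no enrichment by gene. Counted by gene, 29.4% of the 17 members and 1 of the remaining genes of the interval had an IDR promoter summit. The share of all genes was 33.3%. The strongest of the 5 was not at a member. It lay at the start of Pgant3, an enzyme that adds the first sugar of O-linked glycans, with a relative signal of 10.4 and rank 465. The 4 cluster summits at members had a median of 0.666. The relaxed lists of replicates 1, 2 and 3 held 33, 14 and 29 summits in the interval, or 44.9, 19.1 and 39.5 per 100 kb against 21.8, 20.9 and 21.8 over all arms. Replicate 2 thus had fewer weak summits across the cluster than the other replicates, while its Tsp42El, Tsp42Eg and Tsp42Er peaks were the highest of the 3.

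**Figure D4:**
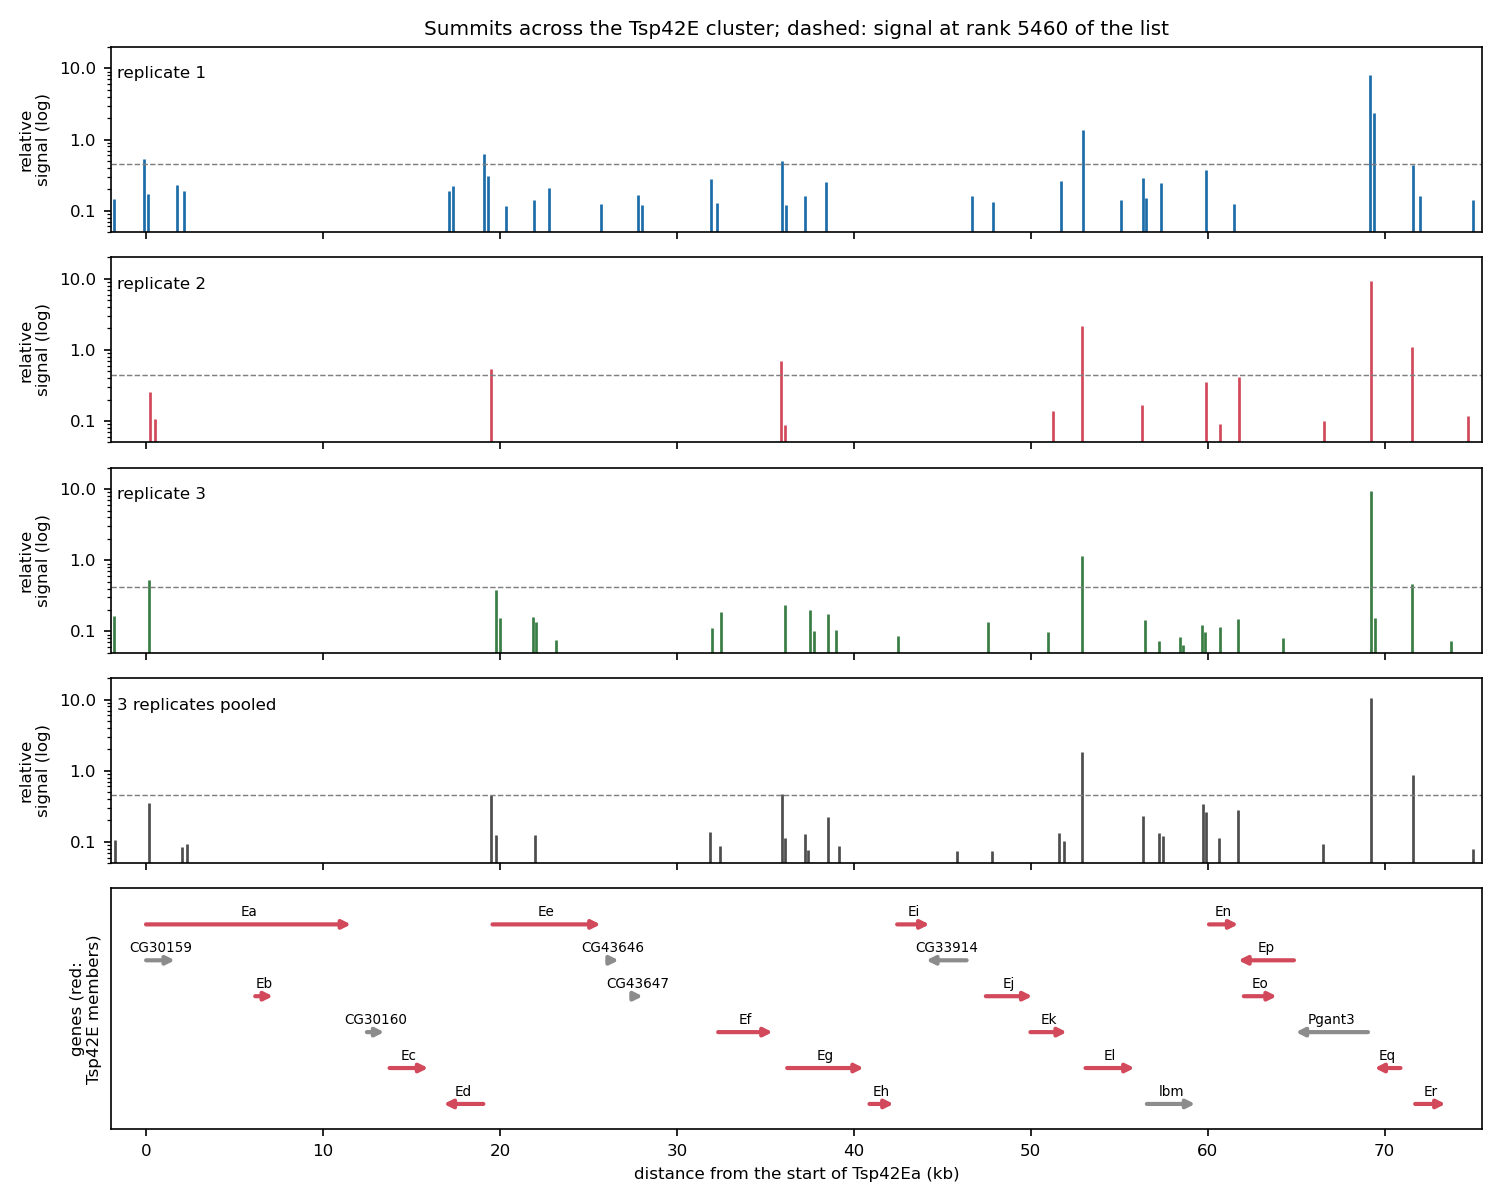
Each line is a summit of the relaxed list of a replicate or of the pool, at its distance from the start of Tsp42Ea (kb), with its relative signal (log scale) as height; arrows are genes in their direction of transcription, Tsp42E members in red without the prefix Tsp42. The line at 10.4 in the pool is at Pgant3, the next highest, 1.81, is at Tsp42El, and replicate 2 has 14 summits in the interval against 33 and 29.

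Beside their lower signal, the member summits lay farther from the start than was usual. Over all 3975 IDR promoter summits the median relative signal was 1.24 and the median distance to the nearest start was 67.0 bp, and for the 6 member summits they were 0.706 and 162 bp. Within 100 bp of a start were 2 of the 6 member summits, those of Tsp86D and of Tsp42Ed/Tsp42Ee, against 62.0% of all. All 6 were upstream of the start, which is also the side where most of all IDR promoter summits lay. With 6 summits no test of these differences was made. The distances were not compared among summits of like signal, so the larger distance cannot be told apart from the lower signal.

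**Figure D5:**
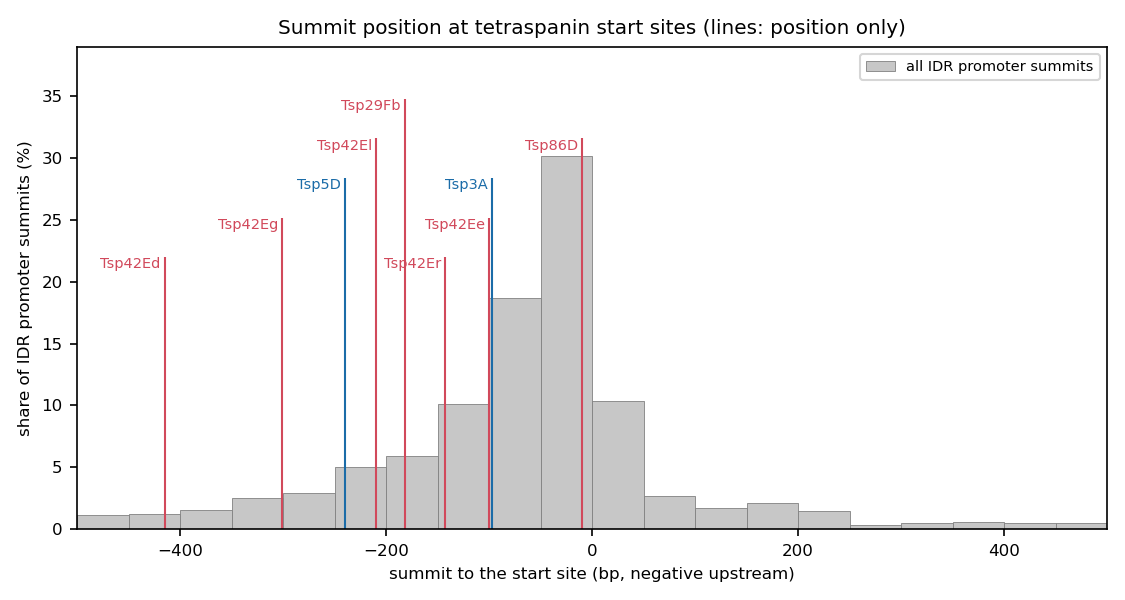
Grey bars give the share (%) of all IDR promoter summits by distance to the start site in bins of 50 bp, negative upstream; lines mark the tetraspanin summits, whose height carries no value (red, members; blue, Tsp3A and Tsp5D). Tsp86D at -10 bp falls in the tallest bin, and the other members lie from -100 to -415 bp.

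The AP-4 site was present at 1 of the 6 member summits, that of Tsp86D, against 30.0% of all IDR promoter summits. Some E-box of any form lay within 50 bp of 4 of the 6, against 56.7%. Motifs of other promoter factors were searched on both strands within the same 50 bp. TATCGATA (DRE) was at 0 of 6 (7.82% of all), CGATA, which TATCGATA contains, at 1 of 6 (30.7%), GGTCACACT (M1BP) at 0 of 6 (3.40%) and CACGTG at 1 of 6 (1.64%).

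Counting the site whether or not crp-GFP was there, CAGCTG occurred within 500 bp of a start in 11 of 31 members (35.5%) and in 47.4% of all genes. It was found at 4 of the 17 cluster members and at 7 of the 14 others. Of the 11, 1 had an IDR summit within 50 bp of the site, which was Tsp86D, against 23.9% of all genes with a site. An IDR promoter summit anywhere within 500 bp was present in 3 of these 11 members (background of genes with a site, 48.0%) and in 4 of the 20 members without a site (background, 20.1%). Tsp47F and Tsp66A, among others, carried the site with no summit within 50 bp of it in any list.

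Tsp86D was also the only member with a second gene starting within 500 bp in the other direction. Of all genes, 24.9% had such a head-to-head start within 500 bp. An IDR promoter summit was present in 65.6% of all genes with such a neighbour and in 22.6% of those without. Of the 30 members without, 6 had one. Among these 6 were Tsp42Ed and Tsp42Ee, which share a summit and whose starts, 515 bp apart, narrowly missed the limit of 500 bp. The count thus depends on this limit. The parts of the site and of the paired start in the Tsp86D peak were not tested.

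Outside the symbol rule, Tsp3A had the next strongest tetraspanin peak after Tsp86D. Its relative signal was 5.62, 4.58 and 7.81, with an SD of 1.65 over the 3 replicates, and its IDR peak ranked 779 at 6.77. The lowest of these values was above 2 times the highest of Tsp42El. As at Tsp86D, another gene started close by in the other direction: Seipin, which encodes a protein of lipid droplets, at 61 bp. A CAGCTG had its centre 29.5 bp from the IDR summit. Unlike at Tsp86D, the summit was not between the starts but 36 bp downstream of the Seipin start, inside Seipin, and 97 bp upstream of the Tsp3A start. The site also lay on the Seipin side, so the peak cannot be assigned to Tsp3A rather than Seipin. Tsp5D had 0.492, 1.17 and 0.296, with an IDR rank of 3311. Tsp2A and lbm had no IDR summit, and their pooled promoter peaks stood at 0.0926 and 0.232.

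Tsp86D and Tsp3A are both TspanC8 genes. The third, Tsp26A, had 0.348, 0.257 and 0.210 (mean 0.271 ± 0.0701, SD, n = 3), below the floor in each replicate. Its printed CAGCTG lay 21.5 bp from the summit in replicate 2 and 25.5 bp from that in replicate 3. The replicate 1 summit was 317 bp upstream of the start. Another CAGCTG, 130 bp downstream of the start, had no summit within 50 bp in any list. Reading these genes as a subgroup was chosen after their values were seen. In the printed windows the 4 bases before the site, cgaa, are the same in Tsp86D and Tsp3A and differ in Tsp26A and Tsp39D. These 4 bases, on either side of the site, were found at 8.55% of the 1357 promoter CAGCTG sites with an IDR summit within 50 bp and at 1.41% of the 7139 without one, a count made after the sequences were seen. At the Tsp39D site the only summits within 50 bp were weak, 0.121 in replicate 1 and 0.182 in replicate 3.

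Genes whose products work with tetraspanins were counted in the same way. Of 11 genes of Notch signalling and its proteolysis, 4 had an IDR promoter summit (background 33.3%). Psn, the catalytic subunit of gamma-secretase, had 9.03, 9.12 and 11.2, with CAGCTG at the summit and the gene Las starting within 500 bp of it. Tace, a metalloprotease related to Kuzbanian, had 0.526, 0.468 and 0.865, also with CAGCTG. The gamma-secretase subunit aph-1 had 0.905, 1.46 and 0.488, and the gene Snx21 also starts within 500 bp of that summit. Su(H), the DNA-binding effector of Notch, had 0.554, 0.813 and 0.502. kuz, N and Dl were among the 7 without one.

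Of 7 integrin genes, 5 had an IDR promoter summit (background 33.3%). The strongest peaks of replicates 1, 2 and 3 reached 3, 4 and 3 of the 7. ItgaPS5 had 6.12, 3.34 and 8.83, at a summit 449 bp upstream of its start that also lies near the start of Rrp4. The alpha subunit gene if had 1.92, 3.58 and 2.41, and the beta subunit gene mys had 0.575, 1.36 and 0.655. The alpha subunit gene scb had 0.258, 0.866 and 0.337, above the floor in replicate 2 alone. The alpha subunit gene mew had 0.301 in replicate 1, no matching peak in replicate 2 and 0.320 in replicate 3, both below the floor. Other genes start within 500 bp of the summits of all of these except scb. None of the 3 smooth septate junction genes mesh, Ssk and hoka, which act with Tsp2A, had one.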

How the data were processed

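Chromatin bound by crp-GFP was measured in 3 samples of 1 group. Per the labels, files are on dm6 and dm3; dm3 was not used. The aligner, the caller and the limit on the IDR were not given in the sources used here. Peak lists were deposited by the authors with a signal value on the scale of their caller, which moves with read depth and was used only within a list. They also deposited a −log10 q value, which was not used, and the summit as an offset in bases from the peak start.

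Gene models came from Ensembl release 115. Computed here were relative signal, distances to start sites, sites lying whole within 50 bp of a summit on either strand, and counts of genes. Summits of different lists were the same within 100 bp. A head-to-head start was one on the opposite strand, within 500 bp on the upstream side. Where several promoter peaks lay at a gene, the strongest was taken. Shares inside and outside the cluster were compared by an exact sign-flip permutation test over replicates. Every member is named; partner genes with an IDR promoter summit are named. Delta, Kul and Nct were matched to listed older symbols through RefSeq synonyms. Members and lists were chosen with earlier results of these data known. Alternatives covered windows, list length, scaling, gene assignment and leaving out each replicate. Counting of summits was tested on simulated data. The work used Python 3.11.15, numpy 2.4.6 and matplotlib 3.10.9. Depth is unknown, so no counting interval is given.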

Additional observations from a re-analysis of the deposited data

How the results depend on the processing

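The counts of members depended mostly on list length and on leaving out a replicate, which also shortened the list. Members with a promoter summit, 7 as reported, were 18 in the relaxed pooled list, 1 among the 1000 strongest IDR peaks and 2 to 4 when a replicate was left out. With windows of 250 and 1000 bp they were 5 and 9. The share of all genes was 57.2% in the relaxed pooled list. It was not counted for these windows or for the 1000 strongest peaks. Counts at those settings, inside or outside the cluster, therefore have no background to be read against. Cluster members, 5 as reported, were 3 with a window of 250 bp, 10 in the pooled list, 0 among the 1000 strongest and 1 to 2 without a replicate. The others, 2 as reported, were 8, 1 and 1 to 2 under the pooled list, the 1000 strongest and leaving out a replicate, and 1 without Tsp29Fa and Tsp29Fb. Members with a body summit only were 2 in the pooled list instead of 0, and 0 without any replicate. Member summits with a site were 4 for any E-box instead of 1 for CAGCTG, and 1 without any replicate. The difference of shares, -11.2 points as reported, was reversed to 7.14 with the 1000 strongest peaks and to 8.96 with all relaxed peaks, was -3.36 and -5.60 with windows of 250 and 1000 bp, and ranged from -12.8 to -9.24 without a replicate. The cause was not tested. Scaled to the 1000 strongest peaks, each of the 7 relative signals was lower (Tsp86D 3.47, Tsp42El 0.188), by construction. Leaving out a replicate replaced the IDR list by 3377 to 3938 summits shared by a pair, so fewer summits were read. The share of all genes in the pair lists was not counted, so the lower counts cannot be told from the shorter lists. No paired analysis was possible because there was 1 group of samples and so no pairs between groups; the shares inside and outside the cluster were compared within each replicate. Read depth is unknown, so a missing weak peak cannot be told from too few reads.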
